A study of Mus musculus with 79 samples.

Results

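The genes analyzed here encode the proteins of the cytosolic ribosome. They were chosen by symbol only: Rps or Rpl followed by a number (with at most 1 letter and 1 more digit), Rplp0 to Rplp2, Rpsa and Fau. By this rule 90 of 55471 counted genes were members, 37 of the small and 53 of the large ribosomal subunit, of which 84 were annotated as protein coding and 6 as pseudogenes (Rps12l1, Rps3a2, Rps3a3, Rpl6l, Rpl32l and Rps4l). Bulk RNA sequencing covered the medial prefrontal cortex (mPFC, 39 libraries) and the ventral hippocampus (vHipp, 40 libraries) of 40 adult male wild-type mice of the outbred CD-1 stock. Mice labelled CSDS had been attacked by an aggressor daily for 21 days and returned to their group of cage mates after each attack, and mice labelled CTRL had been group-housed without defeat. Each mouse then received 1 intraperitoneal injection of saline or of (R,S)-ketamine at 10 mg/kg, and tissue was punched from frozen sections 7 days later. There were 10 mice in each of the 4 groups, CTRL saline, CTRL ketamine, CSDS saline and CSDS ketamine, and 1 library less for the mPFC of CSDS ketamine mice, which held 9. The design asks whether stress, ketamine or both changed transcript levels in either region, and the members were followed across regions, groups and mice.

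Each ribosome holds 1 copy of nearly every ribosomal protein, the acidic P proteins of the stalk being the exception, so cells make these proteins in near equal amounts. Most of their mRNAs start with a C followed by a run of pyrimidines, the 5′ terminal oligopyrimidine (TOP) start, through which mTORC1 and the binding protein LARP1 set their translation. Their levels are high in neurons, which also translate them locally in dendrites and axons, and ketamine is known for acting on mTORC1 signaling and on the translation factor eEF2 in the brain.

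Total counts lay between 11726129 and 34501588 in the mPFC and between 11782570 and 41767119 in the vHipp, so that counting error weighs mainly on members under 1 CPM (counts per 1000000 counts), such as Rpl39l, Rpl3l and Rps12l1. Markers of the cortex were higher in the mPFC for 7 of 7 genes, and markers of the hippocampus were higher in the vHipp for 5 of 7, with Wfs1 and Dkk3 the other way. The vHipp library of mouse 9 (CSDS saline) held 746 CPM summed over 6 choroid plexus markers, against at most 33.6 CPM in CTRL saline, and the vHipp library of mouse 11 (CSDS ketamine) held 8.93% of its counts on mitochondrially encoded genes, against a vHipp median of 3.93%. Within each group the 2 closest libraries still differed by at least 4.55 times counting noise (chi-square per degree of freedom), so no library was present in duplicate within a group.

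The start sites of members are shown because the TOP start is the sequence that ties these mRNAs to translational control. RefSeq promoters of mouse build GRCm38.p6 were matched for 65 members. A C followed by at least 4 further letters that were each C or T, read on the strand of the gene within 10 bases before and 10 bases from the annotated start, was found in 36 of the 65 (55.4%) and in 7773 of 27025 genes of the same table (28.8%). Each line below gives 20 bases before and 10 bases from the start, 5′ to 3′, with that run in capitals, for a ubiquitin-like fusion, 1 of the members with a run of 17 bases, a stalk protein and a small subunit protein that differed between regions, and then for 2 members without such a run at the annotated start, the stalk protein Rplp0 and the reference gene Rpl13. The last 2 have pyrimidine runs a few bases upstream, and an annotated start may lie off the base where transcripts begin.
Fau (chr19:6057927-6057956, plus strand): ggacgtgcgcgcccccaCTTCTTCCTCTTT
Rpl7a (chr2:26910787-26910816, plus strand): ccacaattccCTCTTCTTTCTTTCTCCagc
Rplp2 (chr7:141447631-141447660, plus strand): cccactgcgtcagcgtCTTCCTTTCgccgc
Rps27 (chr3:90213639-90213668, minus strand): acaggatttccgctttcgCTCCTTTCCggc
Rplp0 (chr5:115559447-115559476, plus strand): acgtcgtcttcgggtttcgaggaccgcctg
Rpl13 (chr8:123102330-123102359, plus strand): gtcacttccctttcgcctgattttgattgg

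Members took a small and variable part of each library. In the mPFC the share of all counts on the 90 members was 0.677% in the lowest library, 0.800% at the median and 1.02% in the highest, and in the vHipp it was 0.660%, 0.778% and 1.03%. The 2 regions overlapped over nearly their whole ranges. Among mPFC groups the median share was 0.842% in CTRL saline (0.713% to 0.992%), 0.770% in CTRL ketamine (0.729% to 0.918%), 0.777% in CSDS saline (0.711% to 0.958%) and 0.811% in CSDS ketamine (0.677% to 1.02%). Among vHipp groups it was 0.750% in CTRL saline (0.693% to 0.972%), 0.752% in CTRL ketamine (0.695% to 0.894%), 0.809% in CSDS saline (0.660% to 0.991%) and 0.773% in CSDS ketamine (0.699% to 1.03%). All 4 groups overlapped in each region, and the order of their medians was not the same in the 2 regions. The highest library of a group came from the same mouse in both regions, mouse 24 in CTRL saline, mouse 23 in CTRL ketamine, mouse 18 in CSDS saline and mouse 1 in CSDS ketamine.

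**Figure D1:**
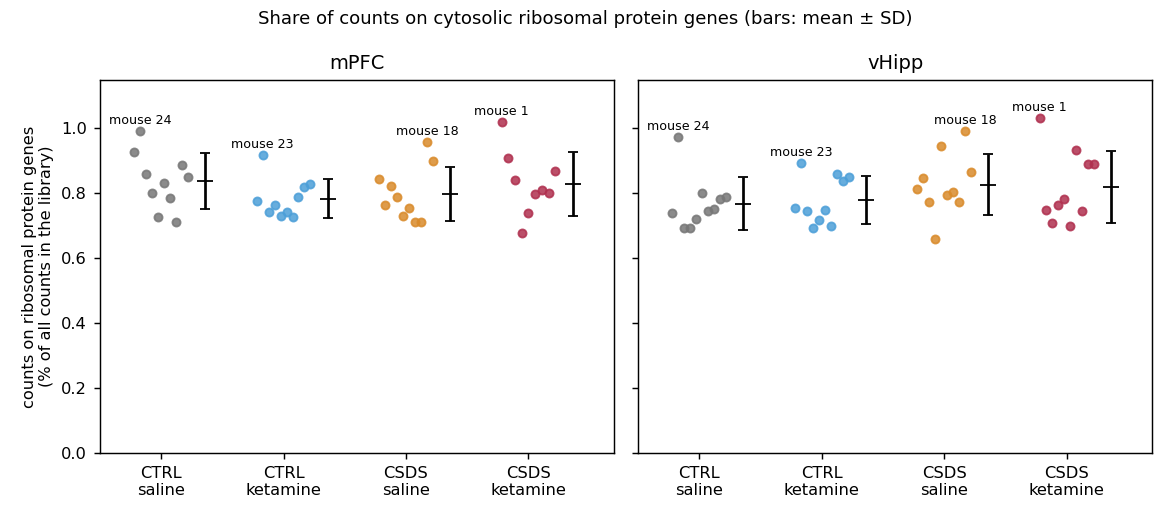
Percent of all counts that fell on the 90 ribosomal protein genes (vertical axis) in each library, by region and group; each point is 1 library, the bar beside the points gives mean ± SD, and the mouse of the highest library is named. The groups overlap in both regions, and the named mouse of a group is the same in both.

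Levels of different members were compared as RPKM (reads per kilobase of transcript and per 1000000 reads), from CPM scaled by trimmed mean of M values (TMM) and the length of 1 chosen transcript per gene. The P proteins of the stalk, which recruit the translational GTPases, differed in level: Rplp1 had the highest RPKM of all members (488 ± 72.2 in the mPFC and 512 ± 77.8 in the vHipp, mean ± SD, n = 39 and 40), while Rplp0 (89.5 and 98.7) and Rplp2 (72.2 and 73.7) lay in the lower part of the order. After Rplp1 followed Rps15 of the small subunit head (420 ± 43.4 and 380 ± 50.5 RPKM), Rpl41, the shortest ribosomal protein (386 ± 39.8 and 354 ± 44.6), Rps29 (293 ± 39.4 and 282 ± 45.4) and Rpl4 (243 ± 17.5 and 250 ± 21.6). Rps15 and Rpl41 differed by less than 1 SD in both regions, and Rplp1 and Rps15 by less than the SD of Rplp1 in the mPFC and by more in the vHipp. The members whose proteins are made as fusions differed by over 1 SD, with 156 ± 18.2 and 143.6 ± 15.9 RPKM for Fau, the fusion of a ubiquitin-like protein with Rps30, and 112.01 ± 12.1 and 106.3 ± 14.2 for Rps27a, the fusion with ubiquitin. Rpsa, the small subunit protein also known as the laminin receptor, had 110.6 ± 16.0 and 105.9 ± 18.1 RPKM, within 1 SD of Rps27a.

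Paralogs of 1 pair differed widely. Rpl3 had 151.2 and 164.3 RPKM in mPFC and vHipp, and Rpl3l, the form of heart and skeletal muscle, had 0.115 ± 0.0828 and 0.134 ± 0.0822. Rpl39 had 56.7 and 54.1 RPKM, and Rpl39l, the form of male germ cells, had 0.0465 ± 0.0741 and 0.0557 ± 0.0958, with an SD above the mean. Rpl10l, the retrogene copy of Rpl10 active in the testis, had no count in any of the 79 libraries, and was the 1 member that could not be tested, while Rpl10 had 160.4 and 152.1 RPKM. The tissue-restricted copies thus lay at or near 0 beside well expressed partners. Rpl22 and Rpl22l1, whose products can stand in for each other in the large subunit, were of like order, with 33.2 ± 2.29 and 43.9 ± 3.41 RPKM for Rpl22 and 50.7 ± 5.21 and 49.3 ± 5.71 for Rpl22l1. Rpl7 had 107.5 and 107.1 RPKM against 8.57 and 8.87 for Rpl7l1, and Rps27 had 199 and 175 against 10.7 and 11.5 for Rps27l, a target of p53. Rps4x had 144.98 and 137.6 RPKM, and Rps4l, a transcribed copy annotated as a pseudogene, had 2.69 ± 0.509 and 6.65 ± 2.06. Rpl36a, which has no paralog among the members, had 100.1 ± 11.9 and 102.3 ± 11.5 RPKM.

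Some members have exons or sequence in common with other genes, and how such reads were counted is not given in the sources used here. Rpl24, a large subunit protein that bridges to the small subunit, had 0.770 RPKM in the mPFC and 0.695 in the vHipp, and 46.99% of its exon bases lie in Gm28037 on the same strand; Rps10, at 2.72 and 3.01, shares 20.6% with the readthrough gene RPS10-NUDT3. In all, 87 of 90 members share sequence with another gene, as the percent of their 50-base words that occur elsewhere in the annotated transcripts: 98.7% for Rps27 (with Rps27rt), 93.3% for Rpl9, 80.3% for Rpl13, 100% for the pseudogene Rps12l1, 5.20% for Rpl22 and 0% for Rpl3l. Levels of such members are therefore uncertain as absolute values. Across the 89 members with counts, the Spearman rho of mean RPKM was 0.196 with the shared percent and −0.301 with transcript length, given as a description since genes are not independent replicates. With the union of exons in place of the chosen transcript, Rplp1 stayed first in both regions, whereas Rpl13 moved from rank 12 to rank 35 in the mPFC and from 11 to 35 in the vHipp.

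Each library has its own bias for GC content and transcript length, and the level of the members moved with it. The length slope is the change of the log2 CPM of a library, relative to the mean of its region, per doubling of transcript length, and the GC slope is the change per unit of GC fraction, both fitted together on protein-coding genes of at least 1 CPM that are not members (13389 in the mPFC and 13293 in the vHipp). Length slopes ranged from −0.143 to 0.0672 in the mPFC and from −0.161 to 0.0728 in the vHipp, a negative slope meaning relatively more counts on short transcripts. After group means were taken off, the mean log2 CPM of the 89 members had a Pearson r of −0.763 with the length slope in the mPFC (Spearman rho −0.667, r −0.698 without the 2 libraries farthest from the median slope); for the vHipp this r was −0.821 (rho −0.692, r −0.737). With the GC slope it was 0.634 in the mPFC (rho 0.633, r 0.578 without 2) and 0.598 in the vHipp (rho 0.557, r 0.609). Libraries with more counts on short and on GC-rich transcripts were those with more counts on members. These values describe the libraries and carry no p, because the mean is taken over chosen genes.

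**Figure D2:**
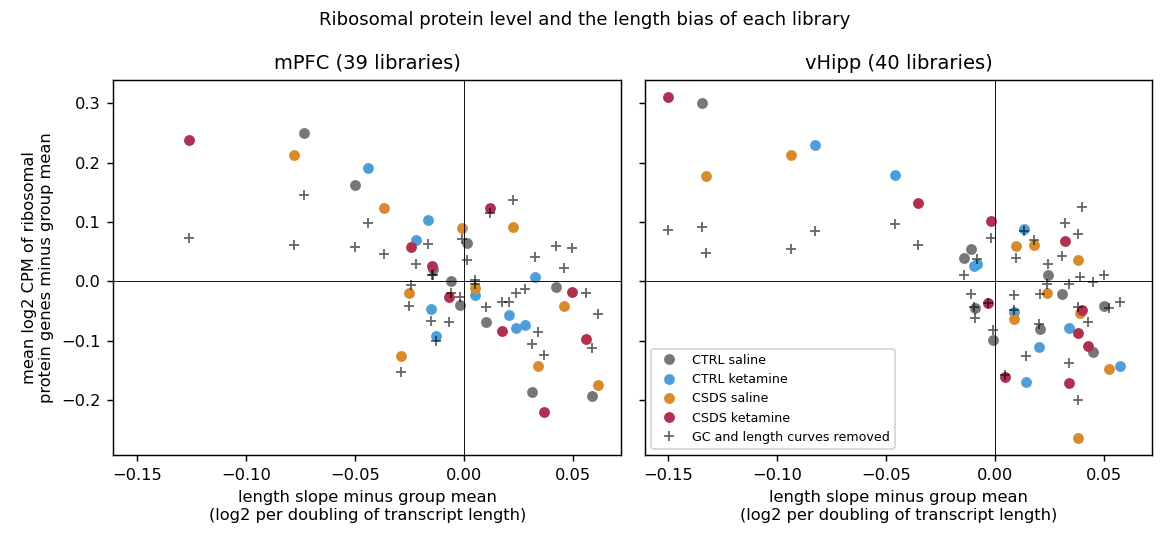
Mean log2 CPM of the 89 tested members (vertical axis) against the length slope of the library (horizontal axis, log2 CPM per doubling of transcript length), both as deviations from the group mean, by region; each point is 1 library. Libraries with a more negative slope had higher levels, with r of −0.763 in the mPFC and −0.821 in the vHipp.

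Rpl13, a large subunit protein and a reference gene in the study's quantitative PCR, was tested alone. Its level had 110.5 CPM in the lowest mPFC library, 138.9 at the median and 176 in the highest, and 120.2, 139.4 and 177 CPM in the vHipp, so the regions overlapped over most of their ranges. In the mPFC its log2 CPM had r = −0.671 with the length slope (rho −0.592, r −0.566 without 2 libraries, n = 39, permutation p = 1e-05, the smallest that the 100000 resamples can give, adjusted p = 5e-05) and r = 0.668 with the GC slope (rho 0.632, r 0.608, permutation p = 2e-05, adjusted p = 5e-05). In the vHipp r was −0.642 with the length slope (rho −0.578, r −0.519 without 2, n = 40, permutation p = 2e-05, adjusted p = 5e-05) and 0.676 with the GC slope (rho 0.644, r 0.692, permutation p = 1e-05, adjusted p = 5e-05). The Spearman values gave adjusted permutation p between 0.0001 and 0.000375. The chosen transcript of Rpl13 has 780 bases and 57.05% GC. The slopes measure how a library shifts genes by length and GC, so these signs are likely for any short, GC-rich transcript. Other genes of like length and GC were not compared. The other 6 of the 10 relations tested, with total counts, the mitochondrial share and the library number in the labels, had adjusted permutation p of at least 0.376 for Pearson's r and 0.228 for rho.

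The dependence was shared by nearly all members and was not equal among them. The r values below were computed for members only, and other genes of like length and GC were not compared. For single members, r with the length slope was negative for 85 of 89 in the mPFC and for 89 of 89 in the vHipp, with a median of −0.665 in each, and r with the GC slope was positive for 84 and 85, with medians of 0.565 and 0.534. Rpl22, whose chosen transcript of 2051 bases is long for a member, still had r = −0.782 and −0.672 with the length slope. Rpl35a had −0.0866 and −0.0260, the weakest r of any member in the vHipp, while 4 members had a positive r in the mPFC, at most 0.245. The GC and length curves of each library, in 20 bins, were then taken off. In the mPFC the within-group SD of the mean of members fell from 0.124 to 0.0752 on the log2 scale. In the vHipp it fell from 0.138 to 0.0797. The mean of members then still had r = 0.510 in the mPFC and 0.553 in the vHipp with the GC slope. With the length slope it had −0.357 and −0.384, so the removal was partial.

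Members rose and fell together from library to library. Across all pairs of members, the median r within groups was 0.695 in the mPFC and 0.660 in the vHipp, and 0.401 and 0.366 after the curves were removed. Pairs of other genes were not compared. Among the members that followed the mean of the others closely were the small subunit members Rps25 (r 0.949 in the mPFC and 0.944 in the vHipp), Rps21 (0.948 and 0.933) and Rps16 (0.939 and 0.937), and Rpl13 reached 0.923 and 0.916. The least close in the mPFC were Rpl24 (−0.196 and −0.00835), Rpl39l (−0.136 and 0.167), Rps12l1 (−0.0638 and 0.129) and Rps4l (0.0251 and 0.0598), and in the vHipp Rpl15 (0.0201) was next after Rpl24. Of genes outside the set, 18 other mRNAs known for a TOP start, such as translation factors, had a mean level that followed the members at r = 0.904 and 0.870, and at 0.825 and 0.809 after the curves were removed. For 77 mitochondrial ribosomal proteins r was 0.712 and 0.703 and became 0.151 and 0.110 after removal, and for 78 nuclear-encoded subunits of oxidative phosphorylation it was 0.731 and 0.802 and became 0.147 and 0.251. For 20 ribosome biogenesis genes it was 0.443 and 0.167 and became 0.316 and −0.0569. For 14 genes of mTORC1 and 4E-BP control it rose, from 0.0448 and −0.00272 to 0.440 and 0.438. For the 11 lists of cell and tissue markers r as counted lay between −0.667 (cortex) and 0.478 (microglia) in the mPFC and between −0.178 (cortex) and 0.303 (oligodendrocyte) in the vHipp. After removal it lay between −0.619 (cortex) and 0.603 (endothelium) in the mPFC, with −0.439 for striatum, −0.375 for neuron, 0.453 for meninges, 0.492 for microglia and 0.520 for astrocyte markers. In the vHipp it then lay between −0.426 (neuron) and 0.541 (astrocyte), with 0.385 for striatum and 0.501 for microglia markers. The levels of these lists come from the same libraries, and the part of depth, base composition and dissection in these values was not tested.

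The 2 regions of 1 mouse had related levels. Over the 39 mice with both regions, the deviation of the mean of members from its group had r = 0.606 between regions (rho 0.546, r 0.468 without 2 mice), and 0.106 (rho 0.134, r 0.0884) after the curves were removed. The length slopes of the 2 libraries of a mouse were themselves related (r = 0.775, rho 0.686, r 0.659 without 2), as were the GC slopes (0.767, 0.763 and 0.750). For single members the median r between regions was 0.569 as counted and 0.288 after removal, and other genes were not compared. Rpl36, of the large subunit, kept r = 0.655 after removal from 0.827, while Rpl13 went from 0.611 to 0.180.

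For each well-counted member the widest gap in log2 CPM that left at least 5 mice on either side was found in each region. For 3 members each mouse lay on the same side of it in both regions, so no correlation over all mice is given for them. Rps2, a small subunit protein near the mRNA entry, had 34 mPFC libraries at 87.01 CPM or below and 5 at 107.4 CPM or above, and 35 vHipp libraries at 93.6 CPM or below and 5 at 107.7 CPM or above. The 5 mice on the upper side, mice 3, 10, 14, 24 and 30, were the same in both regions. For Rpl35a, a large subunit protein mutated in some Diamond-Blackfan anemia, 16 mPFC libraries lay at 32.1 CPM or below and 23 at 38.1 CPM or above, and in the vHipp 17 lay at 30.1 CPM or below and 23 at 36.7 CPM or above. Each of the 39 mice with both regions was on the same side in both, and the additional low vHipp library was from mouse 5, which had no mPFC library. For Rpl30, a large subunit protein that binds its own transcript in yeast, mice 8, 13, 27, 28, 29 and 34 lay below the gap (41.7 to 46.2 CPM in the mPFC, 34.2 to 46.9 CPM in the vHipp) and all others above it. In the mPFC a wider spacing than the gap lay among the low mice for Rpl30 and below the single highest mouse for Rpl35a. Such a gap was sought in the 85 members with a mean of at least 1 CPM in each region and no library at 0. Rps2, Rpl35a and Rpl30 were the 3 for which all 39 mice kept their side, and the next, Rpl32 and Rpl27a, kept it for 36. Genes outside the set were not searched, so how common this is among all genes was not tested. Rps2 was on the upper side in 2 of 10 CTRL saline, 0 of 10 CTRL ketamine, 1 of 10 CSDS saline and 2 of 10 CSDS ketamine mice, Rpl35a on the lower side in 5, 6, 1 and 5, and Rpl30 on the lower side in 3, 1, 2 and 0. Rps2 shares 79.03% of its 50-base words with other genes, Rpl35a 52.9% and Rpl30 47.8%, and the part of differences between outbred mice in these sequences was not tested.

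**Figure D3:**
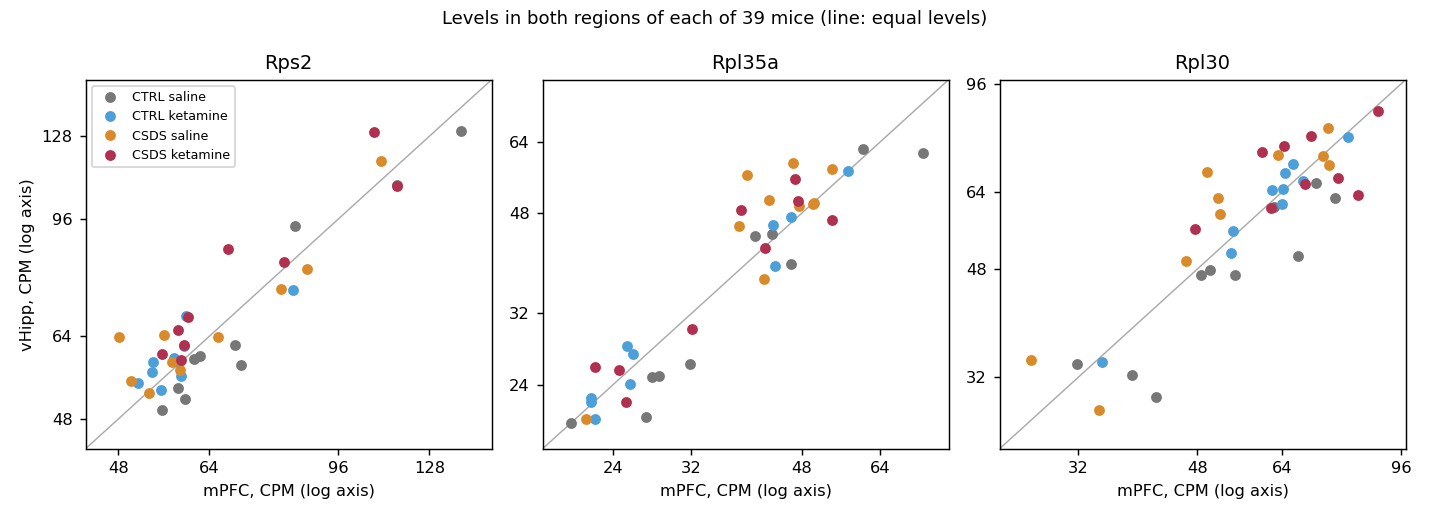
Level in the mPFC (horizontal axis, CPM) against level in the vHipp (vertical axis, CPM) of the same mouse; each point is 1 of 39 mice, colored by group, on log axes, and the line marks equal levels. For Rps2, Rpl35a and Rpl30 each mouse lies on the same side, in both regions, of the widest gap that leaves at least 5 mice on either side.

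Between regions, most members differed little, and the members called went in both directions. Tested with edgeR's quasi-likelihood test across 31534 genes, with Benjamini-Hochberg adjusted p under 0.05 as the threshold, 7 of 89 members were higher in the mPFC and 25 higher in the vHipp, where 24.4% of all genes tested were called in each direction. In this fit the share of members called higher in the mPFC was below that background and the share called higher in the vHipp was near it, though this differed among the fits given next, and the median log2 fold change (LFC, mPFC minus vHipp) of the 89 was −0.015, against −0.00030 for all genes. By subunit, 3 of 37 small and 4 of 52 large subunit members were higher in the mPFC, and 10 and 15 higher in the vHipp. The counts depended on the library bias: with offsets for GC and length 31 members were higher in the mPFC and 20 in the vHipp (background 26.7% and 23.7% of genes), no member being called in opposite directions by the 2 fits. With the mouse as a replicate block, since both libraries of a number came from the same animal, 15 were higher in the mPFC and 33 in the vHipp (background 24.7% and 25.2%). In saline-treated CTRL mice alone, 18 were higher in the mPFC and 2 in the vHipp (background 17.1% and 15.6%). Cell numbers and RNA per cell cannot be told apart in bulk tissue, and markers of other cells moved with region as well, 5 of 5 erythroid, 5 of 5 striatal, 3 of 4 meninges, 2 of 5 endothelial and 1 of 6 microglia markers being higher in the mPFC, 3 of 5 neuron markers higher in the vHipp, and choroid plexus (1 higher in the mPFC and 3 in the vHipp of 6) and astrocyte markers (1 and 2 of 5) going both ways. The part of these in the members' values was not tested.

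Rpl22, which binds RNA outside the ribosome too and is known for a role in lymphocyte development, had the clearest difference of a protein-coding member. It was at 55.7 CPM in the lowest mPFC library, 66.9 at the median and 76.5 in the highest, and at 78.9, 92.5 and 104.9 CPM in the vHipp. The regions did not overlap, and the vHipp was higher in 39 of 39 mice (LFC −0.45, SE 0.0246, edgeR adjusted p = 1.07e-28). Its paralog Rpl22l1 had an LFC of −0.01 (SE 0.0347, edgeR adjusted p = 0.898), and with the replicate block and both offsets it was called higher in the mPFC (LFC 0.07, edgeR adjusted p = 0.0204). Rpl22 is at chr4:152325742-152334071 (GRCm38, plus strand). Rps4l, on chr6:148354656-148355598, lay at 1.45, 2.45 and 3.32 CPM in the mPFC (lowest, median, highest) and at 3.15, 6.02 and 12.2 CPM in the vHipp. The 2 ranges met only between 3.15 and 3.32 CPM, and the vHipp was higher in 39 of 39 mice (LFC −1.34, SE 0.0871, edgeR adjusted p = 3.67e-24), and 14.9% of its 50-base words occur in other genes. Rpl22 and Rps4l were the 2 members called higher in the vHipp under all 12 settings tried.

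Among the other members higher in the vHipp was Rplp0, the base of the stalk. It had 99.5, 117.8 and 151.5 CPM in the mPFC and 113.8, 132.2 and 170.1 in the vHipp, higher in the vHipp in 35 of 39 mice (LFC −0.19, SE 0.0333, edgeR adjusted p = 1.2e-06). Rplp1 differed in the same direction (LFC −0.12, SE 0.0455, edgeR adjusted p = 0.0276), though with a length offset it did not pass (LFC −0.07, edgeR adjusted p = 0.0983), and Rplp2 had an LFC of −0.08 that did not pass (edgeR adjusted p = 0.0738; 0.0029 with the replicate block). Rps26, which lies at the mRNA exit channel, had an LFC of −0.18 (edgeR adjusted p = 0.000161) and was higher in the vHipp in 35 of 39 mice. Rps10 (LFC −0.20, edgeR adjusted p = 0.00562) and the pseudogene Rpl6l (LFC −0.17, edgeR adjusted p = 0.0128) were also higher there, Rps10 with the shared exons named above and Rpl6l with 76.4% of its words shared, mostly with Rpl6. With offsets for GC and length Rpl6l no longer passed (LFC −0.11, edgeR adjusted p = 0.062). Rpsa, Fau, Rps27a and Rpl13 did not pass, with LFC of 0.02, 0.08, 0.03 and −0.03 and edgeR adjusted p between 0.0679 and 0.77. Fau was called higher in the mPFC in 10 of the 12 settings, among them the replicate block (LFC 0.07, edgeR adjusted p = 0.00989), and Rps27a in the 3 with a length offset (LFC 0.11 with GC and length offsets, edgeR adjusted p = 0.000422).

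The 7 members called higher in the mPFC had LFC of at most 0.14. Rps27, a zinc finger protein of the small subunit, had 55.5, 66.99 and 92.7 CPM in the mPFC and 44.4, 59.955 and 80.6 CPM in the vHipp. It was higher in the mPFC in 28 of 39 mice (LFC 0.14, SE 0.0448, edgeR adjusted p = 0.00587), and nearly all of its sequence is shared with Rps27rt. Rps14, which lines the platform of the small subunit, had an LFC of 0.13 (edgeR adjusted p = 0.00199, higher in 30 of 39 mice) and Rps15 one of 0.10 (edgeR adjusted p = 0.0115, 31 of 39 mice). Of the large subunit, Rpl9 (0.11, edgeR adjusted p = 0.00855), Rpl17 (0.11, edgeR adjusted p = 0.00545) and Rpl31 (0.11, edgeR adjusted p = 0.00754) were called, the last 2 of which lie at the peptide exit. These 6 were called higher in the mPFC under all 12 settings. Among the 62 members that share no exon base with another gene on their strand, 7 were higher in the mPFC and 18 in the vHipp.

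**Figure D4:**
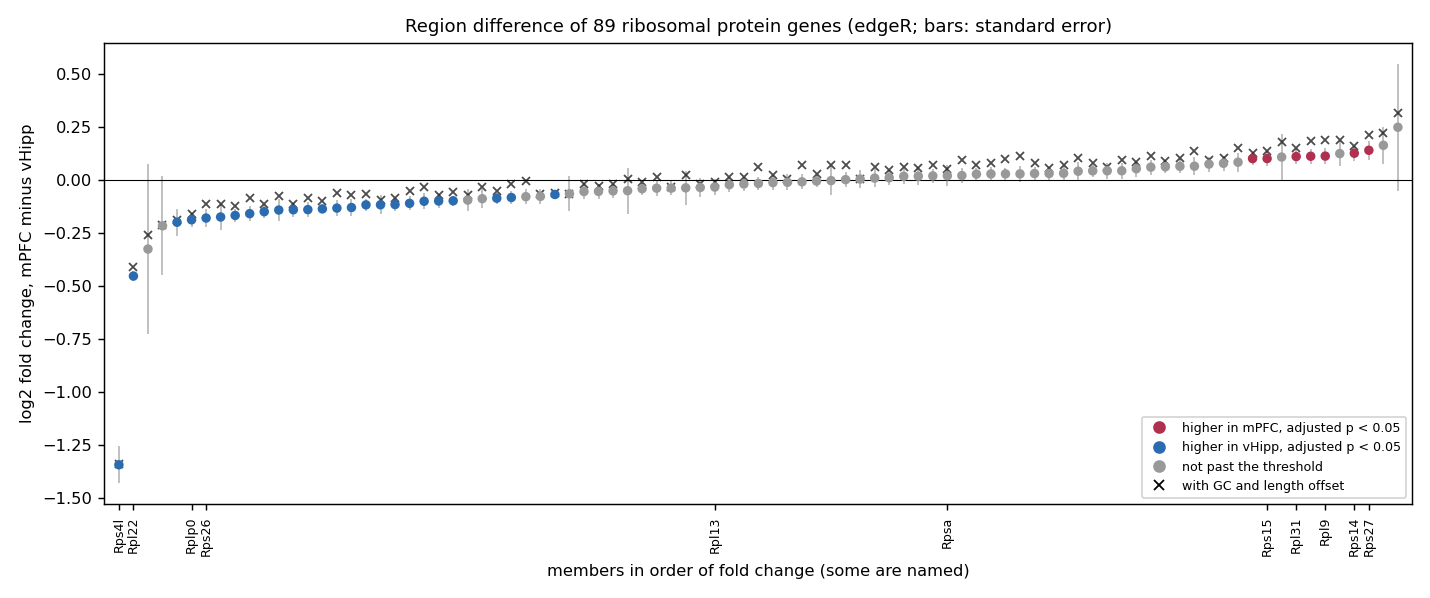
Log2 fold change between regions (vertical axis, mPFC minus vHipp) of the tested members, in order of size; each dot is 1 of 89 members with its standard error, colored by whether it passed, and each cross is the value with offsets. Rps4l (−1.34) and Rpl22 (−0.45) lie lowest and the other members closer to 0.

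Lists of genes of translation and of mitochondria were set against the same background of 24.4% each way, in the fit without offsets. Each list held calls in both directions, though those of oxidative phosphorylation subunits went mostly 1 way. Of 18 other TOP mRNAs, 2 were higher in the mPFC and 11 in the vHipp (median LFC −0.08), among them the elongation factor Eef1a1 (−0.33) and the poly(A)-binding protein Pabpc1 (−0.34), and in the other direction the histone chaperone Nap1l1 (0.42). Ribosome biogenesis genes were called in 5 and 11 of 20 (median −0.09), with the RNA polymerase I subunit Polr1b higher in the mPFC (0.66) and Bop1, a factor of large subunit maturation, higher in the vHipp (−0.44). Of 14 genes of mTORC1 and 4E-BP control, 6 were higher in the mPFC and 5 in the vHipp. The repressor Eif4ebp1 had the widest gap (1.78, SE 0.0878, edgeR adjusted p = 2.49e-31) and its relative Eif4ebp2 went the other way (−0.33, edgeR adjusted p = 1.5e-17). Mitochondrial ribosomal proteins were called in 7 and 42 of 77 (median −0.08) and oxidative phosphorylation subunits in 2 and 69 of 78 (median −0.18).

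Within regions, no member passed the adjusted threshold in any of the 10 comparisons of stress and ketamine. With edgeR's quasi-likelihood test 0 of the 28993 genes tested for the mPFC and 0 of the 28991 tested for the vHipp passed, a background of 0.00% in each comparison, and DESeq2 called no member either. At an unadjusted p under 0.05, edgeR gave in the mPFC 0 members higher and 0 lower for stress with saline (background 1.38% and 1.56% of genes; median LFC of members −0.06), 1 and 0 for stress with ketamine (2.42% and 3.38%; 0.07), 0 and 5 for ketamine in CTRL mice (1.74% and 1.90%; −0.09) and 1 and 0 for ketamine in CSDS mice (1.81% and 2.50%; 0.04). For the interaction, the stress difference with ketamine minus that with saline, 8 were higher and 0 lower (2.43% and 2.88%; 0.13). Mouse 24 (CTRL saline) had the highest share of counts on members in its group. Without it the counts for the interaction and for ketamine in CTRL mice were 0, while their medians were 0.11 (83 of 89 above 0) and −0.06. The background without it was 1.98% higher and 2.85% lower for the interaction, and 1.98% and 1.40% for ketamine in CTRL mice. The medians of the 4 simple comparisons moved to −0.025, −0.0017, −0.030 and −0.0058 with offsets for GC and length, and that of the interaction to 0.025, and the counts became 0 and 0 for the interaction (background 1.81% and 2.89%) and 0 and 2 for ketamine in CTRL mice (2.06% and 1.59%). CTRL saline and CSDS ketamine were the mPFC groups with negative median length slopes (−0.0111 and −0.00514), against 0.0166 in CTRL ketamine and 0.00790 in CSDS saline.

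Rps2 was among the members with the smallest unadjusted p in several comparisons. In the mPFC it had an LFC of −0.40 for ketamine in CTRL mice (SE 0.162, unadjusted p = 0.0178, edgeR adjusted p = 0.997) and of 0.54 for the interaction (SE 0.232, unadjusted p = 0.0234, edgeR adjusted p = 0.898), and in the vHipp 0.37 for stress with ketamine (SE 0.161, unadjusted p = 0.026, edgeR adjusted p = 0.896). Its values in the mPFC were 55.1, 65.8 and 141.6 CPM in CTRL saline (lowest, median, highest) and 51.1, 57.7 and 83.3 CPM in CTRL ketamine. Of the 5 mice on the upper side of its gap, 2 were CTRL saline and 0 were CTRL ketamine mice. Rpl30 had 0.34 for ketamine in CSDS mice in the mPFC (unadjusted p = 0.0397, edgeR adjusted p = 0.993) and 0.37 for ketamine in CTRL mice in the vHipp (unadjusted p = 0.0195, edgeR adjusted p = 1.00), and of its 6 low mice 3 were CTRL saline and 2 CSDS saline. Rpl35a had −0.37 for ketamine in CSDS mice in the vHipp (unadjusted p = 0.0938, edgeR adjusted p = 1.00). Other members of lowest p in the mPFC were Rps12 (−0.17 for stress with saline, unadjusted p = 0.058), Rpl7l1 (0.10 for stress with ketamine, unadjusted p = 0.0449) and Rplp0 (−0.14 for ketamine in CTRL mice, unadjusted p = 0.0381), all with an edgeR adjusted p of at least 0.83.

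In the vHipp, stress with saline was the comparison with most members at an unadjusted p under 0.05, 22 higher and 0 lower of 89 (11 of each subunit), against a background of 3.07% and 2.50% of genes. The median LFC of members was 0.11, against −0.0077 for all genes, and 84 of 89 were above 0, which does not count as 84 observations since the members move together. Rpl23a, which sits at the peptide exit, had 88.2, 104.3 and 125.1 CPM in CTRL saline and 101.03, 122.7 and 141.8 CPM in CSDS saline. The 2 groups overlapped, with an LFC of 0.23 (SE 0.0702, unadjusted p = 0.00189, edgeR adjusted p = 0.825), and 59.7% of its exon bases lie opposite another gene. Rps25 had 0.21 and Rps27 0.26 (edgeR adjusted p = 0.826 for both). Offsets for GC and length gave 27 members and a median of 0.084 (background 3.22% of genes). Without mouse 24, the highest CTRL saline library, the count was 50 and the median 0.15 (background 3.43%), and without mouse 9, the library with choroid plexus markers and a length slope of −0.143, they were 14 and 0.11 (background 2.58%). Beside it, at an unadjusted p under 0.05, 4 of 6 choroid plexus, 2 of 6 microglia, 2 of 5 endothelial, 3 of 5 erythroid and 2 of 7 hippocampus markers were higher, with 2 of 5 striatal markers higher and 1 lower, and the summed microglia markers being 184 to 287 CPM in CTRL saline and 227 to 368 CPM in CSDS saline. No neuron, astrocyte, oligodendrocyte, cortex or meninges marker passed, and the part of other cells in the members' values was not tested.

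The other comparisons in the vHipp held fewer members at an unadjusted p under 0.05. Stress with ketamine gave 3 higher and 0 lower (background 2.81% and 2.61%; median LFC 0.07), ketamine in CTRL mice 1 and 0 (1.32% and 1.57%; 0.04), ketamine in CSDS mice 0 and 0 (1.39% and 1.51%; −0.0072) and the interaction 0 and 1 (1.50% and 1.34%; −0.05). Rpsa had 0.21 and Rps15 0.16 for stress with ketamine (unadjusted p = 0.0356 and 0.0456), and Rps26 had −0.26 for the interaction (unadjusted p = 0.0381), all with an edgeR adjusted p of at least 0.896. Beside stress with ketamine, 5 of 6 microglia, 2 of 5 astrocyte and 2 of 5 striatal markers were higher at the same threshold, and 2 of 7 cortex and 1 of 7 hippocampus markers lower. The library of mouse 11 (CSDS ketamine) held the highest summed astrocyte and microglia markers of its group (2928 and 651 CPM, against group medians of 1046.1 and 266). Without it 1 member was higher (background 1.97%; median LFC 0.09), and the part of these cells in the members' values was not tested. By DESeq2 the count for stress with saline was 29 higher and 0 lower (background 2.70% and 1.91% of genes). In the other vHipp comparisons it was at most 4 in either direction, as it was in the mPFC. The DESeq2 background per direction lay between 0.745% and 2.56% in these vHipp comparisons and between 0.900% and 2.74% in the mPFC. Comparisons that use the same group, such as stress with saline and ketamine in CTRL mice, share its libraries and are not independent. The mean of members, on the log2 scale, differed between compared groups by −0.08 to 0.07 in the mPFC and by −0.0098 to 0.12 in the vHipp. The within-group SD among mice, pooled over the groups of a region, was 0.124 and 0.138.

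**Figure D5:**
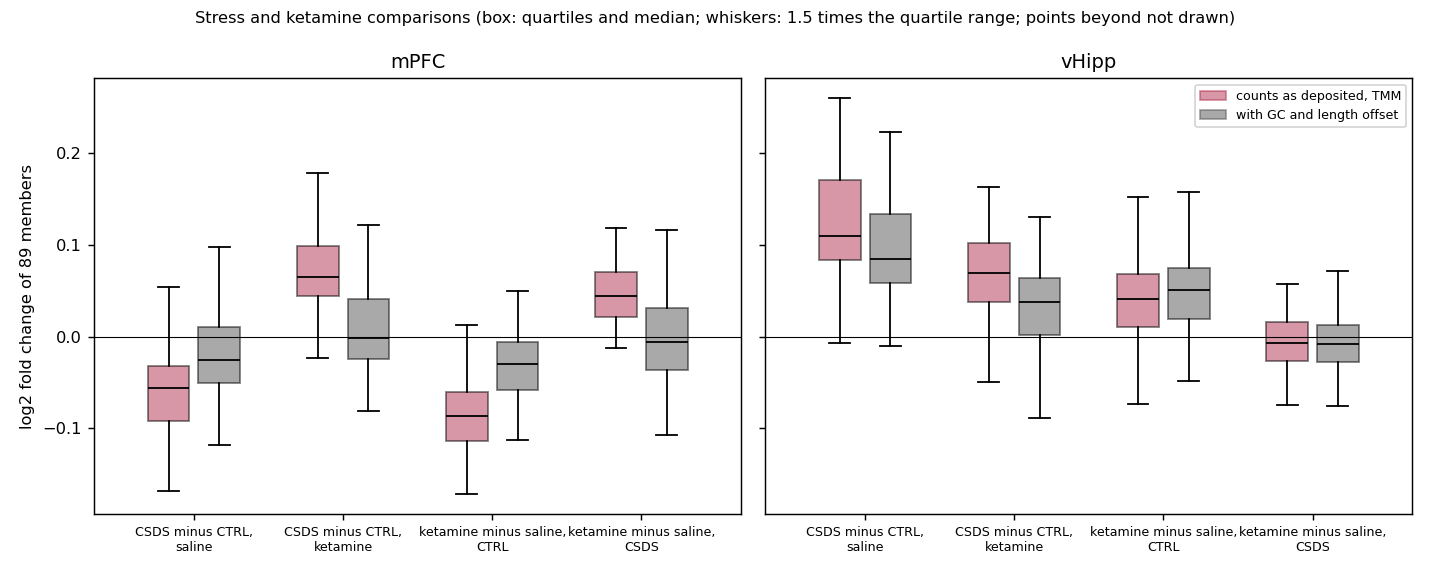
Log2 fold changes of the tested members in the 8 comparisons of stress and ketamine within the regions (interactions not drawn), as counted (red boxes) and with offsets for GC content and length (gray boxes); boxes give the median and quartiles over 89 members, whiskers 1.5 times the quartile range. The medians as counted lie between −0.09 and 0.11, and no member passed the adjusted threshold.

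Because both regions came from the same mice, the difference between regions within a mouse was compared between groups, in a fit with the mouse as a block that was added after the data were seen. The mean log2 level of members, mPFC minus vHipp, had a median of 0.0752 in CTRL saline mice (−0.0905 to 0.155, mPFC higher in 7 of 10), −0.0683 in CTRL ketamine (−0.177 to 0.0687, 3 of 10), −0.125 in CSDS saline (−0.361 to 0.132, 3 of 10) and −0.0960 in CSDS ketamine (−0.268 to 0.153, 3 of 9). CTRL saline was the group in which most mice had the higher level in the mPFC, and all groups overlapped. In the edgeR fit 0 members passed the adjusted threshold, with 0.00% of genes called. At an unadjusted p under 0.05, stress with saline gave 59 of 89 members lower and 0 higher in this difference (background 2.51% and 4.10% of 31497 genes; median −0.16), ketamine in CTRL mice 41 lower and 0 higher (1.31% and 1.19%; −0.13), and stress with ketamine and ketamine in CSDS mice 0 in either direction (1.58% and 1.90%, 1.68% and 0.911%). The first 2 share the CTRL saline mice, and since the members move together these counts do not stand for as many observations. With offsets for GC and length the counts were 34 and 10 (background 2.53% and 0.949%) and those for stress with ketamine and ketamine in CSDS mice 4 and 2 lower (1.97% and 1.50%); without mouse 24 the first 2 were 60 and 45 (2.43% and 1.31%), and without mouse 9 that for stress with saline was 50 (2.35%).

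Rpl38, a large subunit protein known for its role in translating Hox mRNAs, had the smallest p of the members in that fit (difference of −0.31 for stress with saline, unadjusted p = 0.0001, edgeR adjusted p = 0.476). Rpl13 had a median difference between regions of 0.0977 on the log2 scale in CTRL saline mice (mPFC higher in 8 of 10), −0.0473 in CTRL ketamine (1 of 10), −0.123 in CSDS saline (3 of 10) and −0.0285 in CSDS ketamine (3 of 9). The median length slope, mPFC minus vHipp, was −0.0122 in CTRL saline (negative in 9 of 10 mice), 0.0118 in CTRL ketamine, 0.0178 in CSDS saline and −0.00933 in CSDS ketamine. With the curves removed, the medians of the mean of members were 0.0834, 0.0159, −0.0396 and −0.0466. The part of the length bias in the remaining difference was not tested.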

How the data were processed

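The authors extracted RNA with the miRNeasy Micro Kit, prepared libraries with Illumina Stranded mRNA Prep, converted base calls with bcl2fastq 2.20.0.422 (submitters' processing notes) and deposited raw read counts per gene of GRCm38, whole numbers without normalization. The aligner, the counting program, the annotation release and the treatment of reads that match several genes are not given in the sources used here. Samples of low RNA integrity had been removed according to the study's methods.

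The labels of the 79 libraries gave the region, the stress group, the injection and the number of the mouse. The social box and the social rank, which the study's methods use, are not in the labels and were not used here. Symbols, positions and lengths came from GENCODE release M21, which matched 55144 of 55471 identifiers. The members and gene lists were chosen with earlier results of these data known. Genes with more than 10 counts in total, detected in more than 3 libraries, were tested with edgeR 4.0.16 in R 4.3.3 (quasi-likelihood test, TMM, two-sided, Benjamini-Hochberg over all genes tested), with the 4 groups of a region, or all 8 groups between regions, in 1 fit. Each mouse is 1 replicate in the fits. In the study whole groups of cage mates were defeated or not, so mice of 1 social box are not independent. The p values of the stress comparisons do not account for this. DESeq2 1.42.0, RLE, no filter, filterByExpr, TMM factors without the members, only the groups compared, and offsets for GC content and length from 20 bins were alternatives. The fits without single mice and the comparison of region differences were added after the data were seen. Log2 CPM used a prior count of 1. CPM between regions were scaled over all libraries and CPM within a region over its own libraries, so the same library can differ slightly between the 2. Permutation tests drew 100000 resamples (numpy 2.4.6). The models were tested on simulated counts with known changes. Same-numbered libraries come from the same animal, and the median r of members between regions was 0.569. Named members were Rpl13, stalk proteins, fusions and paralogs, the 6 largest region differences each way, the 3 smallest p of each other comparison, and the 5 highest and 5 lowest levels. Rps2, Rpl35a, Rpl30, Rpl36, Rpl32, Rpl27a and Rpl38 were also named after their values were seen. Counting intervals are not given, since spread between mice was used.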

Additional observations from a re-analysis of the deposited data

Results flagged for a closer look

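Of 160 sets of values in groups of 9 or 10 libraries, 19 had 1 library farther from the others than Dixon's 95% limit, which chance alone passes in about 1 of 20 sets, and members that move together are passed together. In the vHipp of CTRL saline mice this was mouse 24, with 0.972% of counts on members (next 0.800%), a mean log2 CPM of members of 5.92, Rpl13 at 167 CPM, Rplp0 at 160 CPM, Rps27 at 74.97 CPM and a length slope of −0.129. In CSDS ketamine it was mouse 1, with length slopes of −0.143 in the mPFC and −0.161 in the vHipp, Rpl22 at 78.1 CPM and Rplp0 at 155 CPM in the mPFC, and Rpl6l at 8.75 CPM in the vHipp. In the mPFC of CTRL ketamine it was mouse 23, with 0.918% of counts on members, Rplp0 at 141.5 CPM, Rps12 at 93.1 CPM and Rps2 at 83.3 CPM. Rps2 in that library lay below the gap described for Rps2. The libraries of mice 24 and 1 had the lowest length slope of their group, and the part of this slope in the members' values was not tested.

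In CSDS saline the libraries were of different mice. Mouse 18 had Rps26 at 78.7 CPM in the mPFC, mouse 15 had Rpl35a at 21.7 CPM in the mPFC as the 1 CSDS saline mouse on the lower side of its gap, and mouse 10 had Rps2 at 117.6 CPM in the vHipp as the 1 on the upper side. Mouse 8 had the lowest mean of members after removal of the GC and length curves in the vHipp, 5.52 on the log2 scale.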

How the results depend on the processing

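Between regions, 7 members were higher in the mPFC as counted, 32 with a length offset, 31 with GC and length offsets, 15 with the replicate block, 32 with the replicate block and both offsets, and 18 in saline-treated CTRL mice alone, where the fit held fewer libraries. Of all genes 24.4%, 26.1%, 26.7%, 24.7%, 26.6% and 17.1% were called higher in the mPFC in these fits. The count higher in the vHipp, 25 as counted, was 2 in saline-treated CTRL mice alone (15.6% of genes) and between 20 and 33 elsewhere. Of these calls, 6 and 2 held in all 12 settings. Stress with saline in the vHipp gave 22 members at an unadjusted p under 0.05, 50 without mouse 24, 14 without mouse 9 and 23 without mouse 11. Of all genes 3.07%, 3.43%, 2.58% and 3.69% were higher in these fits. After removal of the GC and length curves the mean of members had r = −0.357 with the length slope and 0.510 with the GC slope in the mPFC, and −0.384 and 0.553 in the vHipp, where the GC value was 0.598 before. With the percent of counts in place of the mean, the vHipp values were −0.746 and 0.725, and with each slope fitted alone the GC value was 0.707. No call of a member turned its direction between 2 settings, and 0 members passed within a region under any setting. The median LFC of members between regions turned from −0.015 to 0.015 with GC and length offsets, to 0.027 with a length offset and to 0.11 in saline-treated CTRL mice alone, and with GC and length offsets the mPFC medians turned from 0.07 to −0.0017 for stress with ketamine and from 0.04 to −0.0058 for ketamine in CSDS mice. The replicate block could be fitted only between regions, since within a region each mouse has 1 library. The within-group SD of the mean of members, pooled over groups, was 0.124 in the mPFC and 0.138 in the vHipp (log2 scale). This spread limits what a comparison of 10 mice can show, and members under 1 CPM were limited by counting error as well.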
